A study of Mus musculus with 2 samples.

Results

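The genes of oxidative phosphorylation (OXPHOS) were taken as all rows of the expression table whose symbols begin like those of the complex I to V subunits of both genomes, without pseudogene symbols, together with Sdha, Sdhb, Sdhc, Sdhd, Cyc1 and Cycs. This gave 112 of 37172 genes, of which 12 are encoded in the mitochondrial genome and 100 in the nucleus. The prefix for cytochrome b did not take mt-Cytb, the symbol the table uses, so its values are given beside the 12. The prefixes also took 8 complex I assembly factors (Ndufaf genes), which are given as a group of their own. Of the 112 genes, 105 reached 5 counts per 1000000 counts (CPM) in at least 1 culture and are called measured. The other 7 were the nuclear genes Ndufs6b, Ndufa11b, Ndufa4l2, Cox4i2, Cox6a2, Cox7b2 and Cox8c.

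In oxidative phosphorylation, complexes I to IV of the inner mitochondrial membrane pass electrons from NADH and succinate to oxygen. Complexes I, III and IV pump protons in doing so, and complex V, the ATP synthase, uses the proton gradient to make ATP. Complex II is encoded wholly in the nucleus, whereas the other complexes combine nuclear subunits with a few made inside the mitochondrion, so the products of both genomes have to meet. Absorptive cells of the small intestine rely strongly on mitochondria, and mitochondrial activity is known to differ between stem, Paneth and absorptive cells of the crypt.

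The cells came from crypts of the proximal small intestine of C57BL/6 wild-type mice, grown as organoids for 4 days. Collagen organoids were embedded in type I collagen under medium with EGF (50 ng/mL), Noggin (100 ng/mL) and R-spondin1 (400 ng/mL) plus Wnt3a (100 ng/mL), nicotinamide (10 mM) and bovine serum albumin (1%), and were freed with collagenase (0.5 mg/mL). Matrigel organoids, embedded in a basement membrane extract, received the same medium without those 3 additions and were freed with Cell Recovery Solution. Matrix, medium and release thus differ together, and their shares in a difference cannot be told apart. Cells of both cultures carried a culture-specific hashtag bound through EpCAM and were sequenced in 1 single-cell library.

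After filtering, 336 collagen and 1599 Matrigel cells remained, with 42540314 and 285201649 counts in all and medians of 124619 and 179044 counts per cell. No cell barcode was shared between the cultures. Epcam stood at 1458 CPM in collagen and 1076 CPM in Matrigel cells, and none of the markers checked of fibroblasts, immune, endothelial and muscle cells reached 5 CPM in either culture, their summed levels ranging between 0.524 and 1.69 CPM in collagen and 0.448 and 1.49 CPM in Matrigel cells. The marker levels of epithelial cell types differed between the cultures. Summed markers of the fetal or regenerative type stood at 1031 CPM in collagen and 32.4 CPM in Matrigel cells, of stem cells at 269.8 and 2715 CPM, of cycling cells at 429 and 809 CPM, of enterocytes at 1639 and 958 CPM, of Paneth cells at 2008 and 955 CPM, of goblet cells at 1039 and 1189.8 CPM, of enteroendocrine cells at 694 and 208 CPM and of the squamous type at 588.5 and 105 CPM. Paneth, goblet and enteroendocrine markers stood at 44483, 42156 and 14348 CPM in a cluster of 9 collagen and 46 Matrigel cells described below. In the cluster that held 286 of the collagen cells they stood at 244, 305 and 0.741 CPM. Enterocyte markers stood at 1643 CPM in that same cluster and at 11127.5 CPM in a cluster of 68 Matrigel cells, without collagen cells, described below. The cell make-up read from the marker sums thus differed along with the culture. Its part in any difference between the cultures given below was not tested. Each culture was 1 suspension, so no difference below has a replicate check, no test was run and no p-value is given. Levels are counts summed over the cells of a culture and scaled to 1000000, with exact 95% Poisson intervals that cover counting error only. Ratios are given as log2 of the collagen level over the Matrigel level, after adding 1 CPM to both. Levels are not scaled by transcript length, so they compare 1 gene or 1 sum between cultures and not different genes with each other.

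The first comparison concerned the mitochondrially encoded genes. The 12 genes together stood at 34288 CPM (34232 to 34344) in collagen cells and 44157 CPM (44133 to 44181) in Matrigel cells, a log2 ratio of -0.36. Of the 12, 10 had a ratio below 0, and for 3 of these, mt-Nd4, mt-Nd4l and mt-Co3, the collagen level was lower by 1.5-fold or more. None was higher by as much. Over all 10593 measured genes, 19.1% were at least 1.5-fold lower and 18.0% at least 1.5-fold higher. Their median log2 ratio was -0.02, and that of the 12 was -0.37.

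The 7 mitochondrially encoded subunits of complex I, which form its proton-pumping arm, ran from the lowest ratio of the 12 to the highest. mt-Nd4 stood at 2758 CPM in collagen and 4660 CPM in Matrigel cells, a log2 ratio of -0.76. Its neighbour mt-Nd4l, which is known to share a transcript with mt-Nd4, stood at 164 CPM in collagen and 271 CPM in Matrigel cells, a log2 ratio of -0.72. mt-Nd1 had 6638 and 9904 CPM in collagen and Matrigel cells (log2 ratio -0.58), just inside the 1.5-fold line, which it passed in 5 of 12 alternatives. mt-Nd5 had 761 and 1062 CPM (-0.48), mt-Nd3 1036 and 1225 CPM (-0.24) and mt-Nd2 3167 and 3685 CPM (-0.22), in the same order of cultures. mt-Nd6, the only one of these genes on the other strand of the mitochondrial genome, went the other way, at 80.1 CPM (77.5 to 82.9) in collagen and 67.5 CPM (66.6 to 68.5) in Matrigel cells, a log2 ratio of 0.24.

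The catalytic subunits of complex IV were unequal among themselves. mt-Co1, the subunit that holds the oxygen-reducing centre, stood at 8541 CPM (8514 to 8569) in collagen and 8410 CPM (8399 to 8420) in Matrigel cells. That log2 ratio of 0.02 changed sign when cells were thinned to 1 depth (-0.04) and without the cluster led by Ly6d and Sprr1a described below, so mt-Co1 has no direction here. mt-Co2 had 4439 CPM in collagen and 5320 CPM in Matrigel cells (log2 ratio -0.26), and mt-Co3 had 2518 and 4018 CPM (-0.67). Of complex V, mt-Atp8 stood at 162 CPM in collagen and 206 CPM in Matrigel cells (-0.34), and mt-Atp6, which overlaps it on 1 transcript, at 4022 and 5329 CPM (-0.41). mt-Cytb, the complex III subunit outside the prefix rule, had 2731 CPM in collagen and 4184 CPM in Matrigel cells, a log2 ratio of -0.62, also over 1.5-fold lower.

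Along the mitochondrial genome the 5 genes mt-Co1, mt-Co2, mt-Atp8, mt-Atp6 and mt-Co3, which follow each other in this order, had ratios of 0.02, -0.26, -0.34, -0.41 and -0.67, each below the one before. The order broke at the next gene, mt-Nd3. The genes that share a transcript had similar ratios, as the values of mt-Atp8 with mt-Atp6 and of mt-Nd4l with mt-Nd4 show. Nearly all values above 0 of these genes were fractional, 99.9% for mt-Atp8, for which no near-identical copy was found. How far counts shared between such genes make their ratios alike was not tested.

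**Figure D1:**
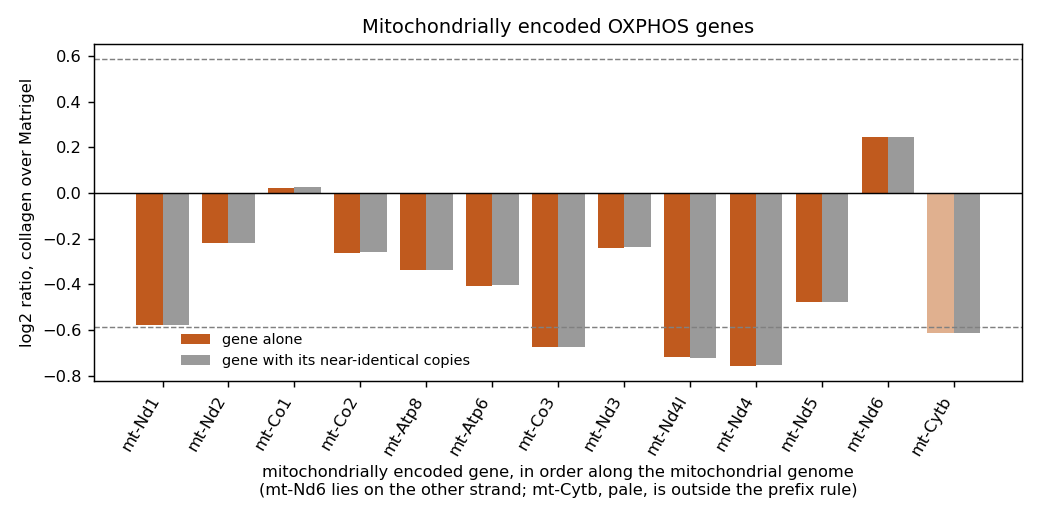
Log2 ratio of collagen over Matrigel level for the 12 mitochondrially encoded genes and mt-Cytb (pale), in order along the mitochondrial genome, for the gene alone (orange) and with its near-identical copies added (grey); dashed lines mark 1.5-fold. The ratios run between -0.76 for mt-Nd4 and 0.24 for mt-Nd6, and adding the copies hardly moves any of them.

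Many of these counts were shared with nuclear pseudogenes, since 9 of the 12 genes have a near-identical copy among the annotated transcripts. The following stretches, from GENCODE vM21 transcripts, show why a read cannot always be placed. The first holds bases 311 to 371 of mt-Co2 and is the same in Gm28661, a pseudogene on chromosome 1 that matches mt-Co2 without a difference over 681 of 684 bases. The others hold bases 1063 to 1096 of mt-Co1 and the matching stretch of Gm29216, also on chromosome 1, where the capital marks the 1 differing base in 483.
mt-Co2 and Gm28661: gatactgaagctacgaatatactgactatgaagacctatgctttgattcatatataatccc
mt-Co1: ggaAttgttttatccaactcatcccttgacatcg
Gm29216: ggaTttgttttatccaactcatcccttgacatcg
The copies of mt-Co2 stood at 4453 CPM in collagen and 5330 CPM in Matrigel cells, close to mt-Co2 itself, and that of mt-Co3 at 2516 and 4014 CPM, close to mt-Co3. With all copies added, the 12 genes summed to 47696 CPM in collagen and 61325 CPM in Matrigel cells, with the log2 ratio still at -0.36. For mt-Co1 nearly all values above 0 were fractional, and mt-Co1 with its copies had a log2 ratio of 0.02. When the genes with mostly fractional values were left out, 3 of the 12 remained (mt-Nd1, mt-Nd5 and mt-Nd6). Their sum had a log2 ratio of -0.56 and came mostly from mt-Nd1, at 6638 CPM in collagen and 9904 CPM in Matrigel cells (-0.58). Of these 3, mt-Nd6 went the other way (0.24). Without mt-Co1 alone, the other 11 summed to 25747 CPM in collagen and 35747 CPM in Matrigel cells, a log2 ratio of -0.47.

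Per cell, the 12 genes took a median of 3.17% of the counts in collagen cells (lowest 0.351%, highest 23.3%) and 4.21% in Matrigel cells (lowest 0.321%, highest 27.5%). The lower and upper quartiles were 2.51% and 4.05% in collagen and 3.80% and 4.73% in Matrigel cells, so the quartile ranges overlapped slightly. For mt-Nd4 they did not overlap, with an upper quartile of 3691 CPM in collagen cells below the lower quartile of 3857 CPM in Matrigel cells. Malat1, a long RNA retained in the nucleus, stood at 986 CPM in collagen and 370 CPM in Matrigel cells, and Neat1, another, at 92.7 and 23.8 CPM. Their part in the difference was not tested. The collagen cells were also less deep, and with all cells thinned to 1 depth the log2 ratio of the mitochondrial sum was -0.44.

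The second comparison concerned the nuclear genes. The 100 together stood at 38623 CPM (38564 to 38683) in collagen cells and 43037 CPM (43012 to 43061) in Matrigel cells, a log2 ratio of -0.16. Of the 93 measured, 80 lay within 1.5-fold, 11 were at least 1.5-fold lower and 2, Ndufv3 and Cox7a1, at least 1.5-fold higher in collagen cells, so both shares were smaller than the background of 19.1% and 18.0%. At 2-fold, 4 were lower and 0 higher, against 8.91% and 8.21% of all measured genes. Most departures were small but to one side, with 73 ratios below 0, 20 above 0 and a median of -0.18. Ndufaf1 passed the filter of 5 CPM only through its level in Matrigel cells.

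**Figure D2:**
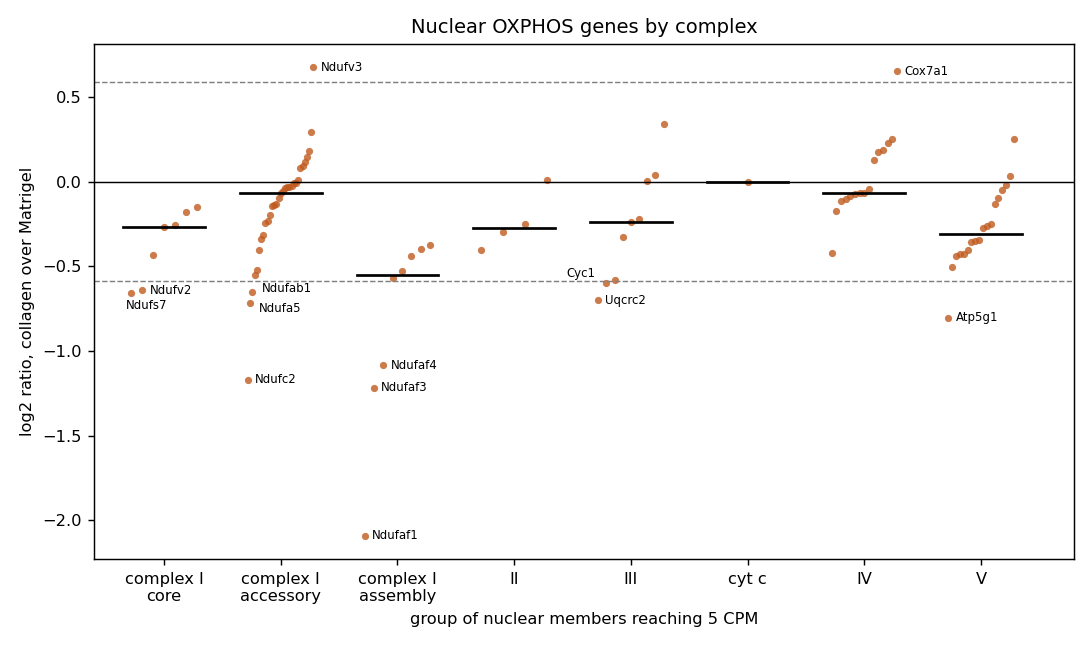
Log2 ratio of collagen over Matrigel level for the 93 measured nuclear genes, grouped by complex, 1 point per gene sorted within its group; bars are group medians, dashed lines mark 1.5-fold, and genes past them are named. The assembly factors lie lowest, with a median of -0.55, and the complex IV genes have a median of -0.07.

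Complex I oxidises NADH and is built from a catalytic core and many accessory subunits. Its 40 nuclear subunit genes stood at 9543 CPM in collagen and 10724 CPM in Matrigel cells (log2 ratio -0.17). The 7 nuclear core genes, which carry the flavin and the iron-sulfur clusters, were all below 0 and summed to 1107 CPM in collagen and 1470 CPM in Matrigel cells (-0.41), while the accessory genes summed to 8436 and 9255 CPM (-0.13). Of the core, Ndufs7, which holds the last iron-sulfur cluster before ubiquinone, had 160 CPM in collagen and 253 CPM in Matrigel cells (-0.66). Ndufv2, an iron-sulfur subunit of the NADH-binding tip, had 214 CPM in collagen and 334 CPM in Matrigel cells (-0.64).

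Among the accessory genes, Ndufc2 of the membrane arm was lowest, at 192 CPM (188 to 196) in collagen and 433 CPM (430 to 435) in Matrigel cells, a log2 ratio of -1.17. Its values were fractional in 75.1% of cases with no near-identical copy found. Ndufa5, of the matrix arm, had 197 CPM in collagen and 326 CPM in Matrigel cells (-0.72). Ndufab1, the mitochondrial acyl carrier protein, had 268 CPM in collagen and 423 CPM in Matrigel cells (-0.65). Its values above 0 were fractional in 56.0% of cases, and its ratio with copies added was also -0.65. In the other direction Ndufv3, a small accessory subunit next to the flavoprotein, stood at 475 CPM (469 to 482) in collagen and 298 CPM (296 to 300) in Matrigel cells (0.67). The next highest, Ndufa13, had 133 CPM in collagen and 108 CPM in Matrigel cells (0.29).

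The 8 complex I assembly factors help to build the complex and are not part of the finished enzyme. All 8 were below 0, and they summed to 243 CPM (238 to 247) in collagen and 400 CPM (398 to 403) in Matrigel cells, a log2 ratio of -0.72. Ndufaf1, which acts on the membrane arm, had the lowest ratio of all 112 genes, at 4.41 CPM (3.81 to 5.10) in collagen and 22.1 CPM (21.5 to 22.6) in Matrigel cells (-2.09). Ndufaf3 and Ndufaf4, which work as partners, had 17.1 CPM in collagen and 41.1 CPM in Matrigel cells (-1.22) and 40.5 and 87.0 CPM (-1.08). The factors nearest to 0 were Ndufaf7, with 16.5 CPM in collagen and 21.6 CPM in Matrigel cells (-0.37), and Ndufaf8, with 89.4 and 118 CPM (-0.40).

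Complex II, succinate dehydrogenase, had no gene past 1.5-fold. Sdhd, a membrane anchor, had 217 CPM in collagen and 288 CPM in Matrigel cells (-0.41). The iron-sulfur subunit gene Sdhb had 254 CPM in collagen and 313 CPM in Matrigel cells (-0.30), and the flavoprotein gene Sdha 214 and 254 CPM (-0.25). Sdhc, the other membrane anchor, had 229 CPM in collagen and 228 CPM in Matrigel cells (0.01).

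Complex III passes electrons to cytochrome c, and its 9 nuclear genes stood at 4943 CPM in collagen and 5559 CPM in Matrigel cells (-0.17). Uqcrc2, a core protein, had 179 CPM in collagen and 291 CPM in Matrigel cells (-0.70). Cyc1, which encodes cytochrome c1, had 233 CPM in collagen and 354 CPM in Matrigel cells (-0.60), a ratio so close to the line that 6 of 12 alternatives put it inside. At the other end Uqcrb had 924 CPM in collagen and 729 CPM in Matrigel cells (0.34), and Uqcrfs1, the Rieske iron-sulfur protein, 284 and 277 CPM (0.04). Cycs, cytochrome c itself, was level at 493 CPM (487 to 500) in collagen and 494 CPM (491 to 496) in Matrigel cells. Nearly all values of Cycs (99.2%) were fractional, and its ratio with copies added was 0.00.

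Complex IV, cytochrome c oxidase, had nuclear sums of 12787 CPM (12753 to 12821) in collagen and 13094 CPM (13081 to 13108) in Matrigel cells, a log2 ratio of -0.03, with Ndufa4 counted here because its protein is known to sit in this complex. Of its 15 measured nuclear genes, 14 lay within 1.5-fold. The lowest were Cox7b, with 844 CPM in collagen and 1130 CPM in Matrigel cells (-0.42), and Cox7c, with 1308 and 1475 CPM (-0.17).

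Several complex IV subunits come as tissue isoforms. The forms used widely outside muscle were abundant in both cultures: Cox4i1 had 1234 CPM in collagen and 1338 CPM in Matrigel cells (-0.12), Cox6a1 had 1301 and 1091 CPM (0.25), and Cox7a2 had 961 and 992 CPM (-0.05). Cox8a had 1715 CPM in collagen and 1567 CPM in Matrigel cells (0.13), Cox7a2l, a factor of supercomplex assembly, 478 and 409 CPM (0.23), and Ndufa4 967 and 1018 CPM (-0.07). Cox7a1, the isoform known from heart and skeletal muscle, stood at 9.16 CPM (8.28 to 10.1) in collagen and 5.47 CPM (5.20 to 5.74) in Matrigel cells (0.65), falling inside 1.5-fold after thinning to 1 depth (0.57). The muscle isoform Cox6a2 was at 0.635 CPM in collagen and 0.529 CPM in Matrigel cells, and Cox4i2, known from lung and from low oxygen, at 0.212 and 0.0473 CPM. Ndufa4l2, a hypoxia-responsive relative of Ndufa4, stood at 0.752 CPM in collagen and 1.60 CPM in Matrigel cells. These 3 did not reach 5 CPM in either culture.

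Complex V had 18 nuclear genes, which summed to 9700 CPM in collagen and 11682 CPM in Matrigel cells (-0.27), with 16 ratios below 0. The 3 genes Atp5g1, Atp5g2 and Atp5g3, which encode the same mature subunit of the rotating c ring behind different import signals, summed to 1509 CPM (1498 to 1521) in collagen and 2175 CPM (2170 to 2181) in Matrigel cells (-0.53). Atp5g1 had 485 CPM in collagen and 848 CPM in Matrigel cells (-0.80), Atp5g2 413 and 587 CPM (-0.51), and Atp5g3 612 and 741 CPM (-0.28). Values above 0 were fractional in 94.7% of cases for Atp5g1 and 99.2% for Atp5g2. With near-identical copies added, their ratios were -0.81 and -0.49. The genes of the catalytic head summed to 3434 CPM in collagen and 3855 CPM in Matrigel cells (-0.17). Within it Atp5e, the epsilon subunit, was on the other side, at 828 CPM in collagen and 696 CPM in Matrigel cells (0.25). Atp5md, a small membrane subunit, had 376 CPM in collagen and 367 CPM in Matrigel cells (0.03). Atp5o and Atp5o.1 have mostly fractional values and were taken as 1 sum, at 326 CPM in collagen and 428 CPM in Matrigel cells (-0.39). The inhibitor of the enzyme, listed as Atpif1 and not among the 112, had 1251 CPM in collagen and 1081 CPM in Matrigel cells (0.21).

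Per cell, the nuclear genes took a median of 3.88% of the counts in collagen cells (lowest 0.698%, highest 6.56%) and 4.27% in Matrigel cells (lowest 0.521%, highest 6.91%), and the quartile ranges, 3.39% to 4.32% in collagen and 3.85% to 4.64% in Matrigel cells, overlapped widely. The nuclear genes of different complexes went together from cell to cell. The share from complex I against that from complex V had a Pearson r of 0.84 and a Spearman rho of 0.77 over 336 collagen cells, and 0.88 and 0.81 over 1599 Matrigel cells. The mitochondrial share did not go with the nuclear share, with a rho of 0.04 and an r of -0.36 in collagen cells and a rho of -0.19 and an r of -0.61 in Matrigel cells. Without the Dip2c and Nr6a1 cluster described below the rho was 0.09 in 330 collagen and -0.04 in 1506 Matrigel cells. The r was then -0.27 in collagen and -0.10 in Matrigel cells. All these shares are parts of the same total and go with depth. The nuclear share had a rho of 0.26 with total counts in collagen and 0.41 in Matrigel cells, and the mitochondrial share one of -0.20 in collagen and -0.33 in Matrigel cells.

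**Figure D3:**
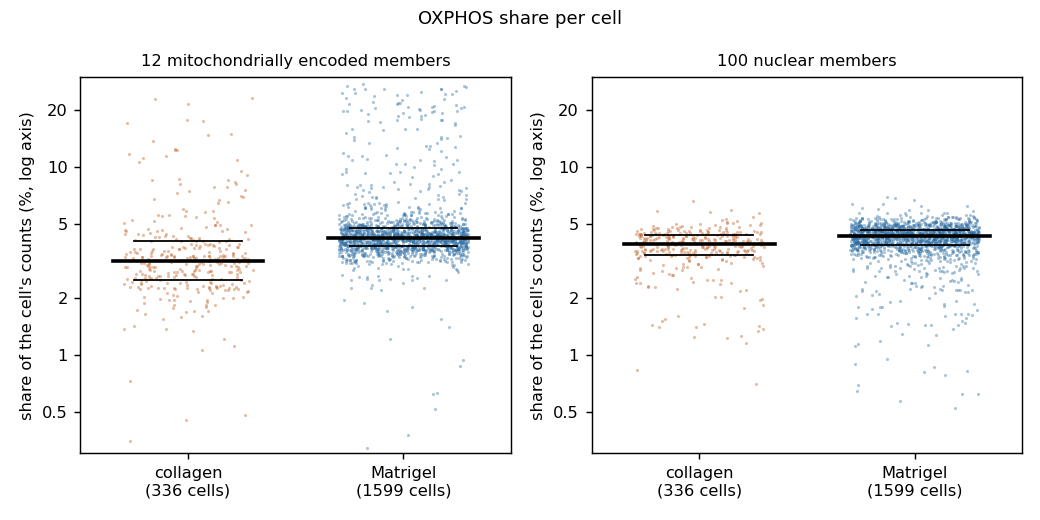
Share of each cell's counts (log axis) from the 12 mitochondrially encoded genes (left) and the 100 nuclear genes (right) in 336 collagen (orange) and 1599 Matrigel cells (blue); 1 point per cell, thick lines are medians and thin lines quartiles. The mitochondrial medians are 3.17% and 4.21% and the nuclear medians 3.88% and 4.27%, and a tail of cells of both cultures reaches above 10% mitochondrial share.

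As the mitochondrial sum differed more than the nuclear sum, the ratio of the first to the second was 0.888 in collagen and 1.03 in Matrigel cells. For complex I alone the ratio was 1.53 in collagen and 1.95 in Matrigel cells, for complex IV 1.21 and 1.36, and for complex V 0.431 and 0.474. With the copies and mt-Cytb added, the ratio over all complexes was 1.30 in collagen and 1.51 in Matrigel cells.

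The promoters of the nuclear genes were searched for letters of 3 motifs known from OXPHOS promoters: NRF-1, ETS (CCGGAAG) and YY1 (AAGATGGC), on both strands. RefSeq promoters on build GRCm38.p6, 250 bases before to 50 after a start, were found for 77 of the 100 genes. The NRF-1 letters were in promoters of 19 of the 77 genes (24.7%) and in 4.60% of all 32851 promoters of the same length, the ETS letters in 19 (24.7%) and 8.86%, and the YY1 letters in 11 (14.3%) and 2.75%. A gene was counted if any of its promoters held the letters, while the share over all promoters counts each promoter singly. The shares are thus not alike in kind, and base composition was not matched. Among the 9 genes with a promoter whose collagen level was lower by 1.5-fold or more, 2 held the NRF-1 letters, 1 the ETS letters and 1 the YY1 letters.

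Of these promoters 4 are shown, with capitals for any of the 3 motifs. Ndufaf1 and Ndufaf4 are assembly factors over 2-fold lower in collagen cells, and Cox6a1 is the gene with the highest ratio among those holding a motif, with both NRF-1 and ETS letters. Cox7a1, at least 1.5-fold higher, holds none of the 3.
Ndufaf1, chr2:119662785-119663084, minus strand: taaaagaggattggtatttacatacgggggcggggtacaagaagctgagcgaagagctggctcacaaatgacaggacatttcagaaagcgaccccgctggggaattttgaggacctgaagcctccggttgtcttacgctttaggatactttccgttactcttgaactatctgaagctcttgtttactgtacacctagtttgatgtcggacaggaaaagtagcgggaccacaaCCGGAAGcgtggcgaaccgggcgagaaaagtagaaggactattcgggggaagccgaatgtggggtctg
Ndufaf4, chr4:24897833-24898132, plus strand: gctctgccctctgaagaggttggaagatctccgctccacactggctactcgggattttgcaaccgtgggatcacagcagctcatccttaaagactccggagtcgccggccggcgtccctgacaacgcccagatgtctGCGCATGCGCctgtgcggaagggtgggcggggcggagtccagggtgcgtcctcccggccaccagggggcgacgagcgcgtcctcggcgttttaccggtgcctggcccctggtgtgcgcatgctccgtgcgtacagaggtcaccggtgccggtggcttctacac
Cox6a1, chr5:115348909-115349208, minus strand: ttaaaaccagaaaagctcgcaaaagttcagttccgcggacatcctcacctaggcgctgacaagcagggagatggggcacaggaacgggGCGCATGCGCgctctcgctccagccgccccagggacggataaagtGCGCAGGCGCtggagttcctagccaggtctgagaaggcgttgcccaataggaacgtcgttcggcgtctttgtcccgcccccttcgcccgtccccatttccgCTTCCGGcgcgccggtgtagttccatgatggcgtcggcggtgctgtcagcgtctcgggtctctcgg
Cox7a1, chr7:30183921-30184220, plus strand: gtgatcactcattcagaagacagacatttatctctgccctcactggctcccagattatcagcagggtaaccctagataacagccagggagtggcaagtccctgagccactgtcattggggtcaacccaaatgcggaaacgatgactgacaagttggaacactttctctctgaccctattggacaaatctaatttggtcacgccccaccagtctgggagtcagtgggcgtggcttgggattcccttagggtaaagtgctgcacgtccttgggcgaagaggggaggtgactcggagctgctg
Ndufaf1 has the ETS letters and Ndufaf4 the NRF-1 letters. Among the assembly factors not shown, Ndufaf8 also held the ETS letters and Ndufaf5 the NRF-1 letters. The NRF-1 letters stood both in the promoter of Ndufaf4, with a ratio of -1.08, and, in 2 places, in that of Cox6a1, with a ratio of 0.25.

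Other genes that serve the mitochondrial machinery were read from lists of their own. The counts of every list are to be set beside the 19.1% lower and 18.0% higher of all measured genes. Of 44 measured assembly factors of all complexes, which include the 8 above, 11 were at least 1.5-fold lower and 3 higher in collagen cells (median log2 ratio -0.31). Uqcc3, which assists complex III, had 23.2 CPM in collagen and 85.1 CPM in Matrigel cells (-1.83), and Atpaf1, a chaperone of the ATP synthase head, 6.66 and 24.97 CPM (-1.76). Of 78 measured genes of the mitochondrial ribosome, which translates the mitochondrially encoded subunits, 27 were lower and 2 higher (median -0.40). Mrpl23 had 53.8 CPM in collagen and 202 CPM in Matrigel cells (-1.89), Mrpl48 33.4 and 76.9 CPM (-1.18), and Mrps2 10.4 and 23.7 CPM (-1.11).

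Of 27 measured genes of mitochondrial import, which brings in the nuclear subunits, 12 were lower and 0 higher (median -0.49). Over all measured genes these shares were 19.1% and 18.0%. Beside the Timm and Tomm genes the list holds the chaperone genes Hspd1 (-1.21), Hspe1 (-0.74) and Hspa9 (-0.93), all among the 12 lower. The Timm prefix also took Timmdc1 (0.02), which is counted among the assembly factors as well. The lower import genes included the paired chaperone genes Timm9, with 22.2 CPM in collagen and 73.3 CPM in Matrigel cells (-1.68), and Timm10, with 30.1 and 77.7 CPM (-1.34). Tomm40, the channel of the outer membrane, had 46.9 CPM in collagen and 115 CPM in Matrigel cells (-1.28). Of 15 measured regulators of mitochondrial gene expression and biogenesis, 6 were lower and 0 higher (median -0.57), but Pprc1 and Polrmt, both among the 6, reached 5 CPM only in Matrigel cells. Tfam, which packs and transcribes the mitochondrial genome, had 47.3 CPM in collagen and 97.0 CPM in Matrigel cells (-1.02). Lrpprc, which stabilises mitochondrial mRNAs, had 55.5 and 104 CPM (-0.90), and Pprc1, a coactivator, 4.41 and 13.2 CPM (-1.39).

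Upstream, 4 of 10 measured genes of pyruvate entry were lower and 0 higher (median -0.32), led by Pdhx (10.0 CPM in collagen and 21.0 CPM in Matrigel cells, -0.999), Mpc2 of the pyruvate carrier (107 and 190 CPM, -0.82) and Dlat (33.6 and 57.6 CPM, -0.76). The other lower gene, Pdp1, had 4.11 CPM in collagen and 7.07 CPM in Matrigel cells (-0.66) and so reached 5 CPM only in Matrigel cells. Of 14 measured genes of the citric acid cycle, 2 were lower and 1 higher (median -0.35), which are smaller shares than the 19.1% and 18.0% of all genes. Idh2, the NADP-dependent isocitrate dehydrogenase, had 57.3 CPM in collagen and 136 CPM in Matrigel cells (-1.23), and Idh3b 91.7 and 164 CPM (-0.83). Mdh2, the mitochondrial malate dehydrogenase, stood at 1178 CPM (1168 to 1188) in collagen and 495 CPM (492 to 497) in Matrigel cells (1.25). Of 4 measured genes of a short list on the switch of isoforms under low oxygen, 1 was higher, Bnip3, a mitophagy receptor, at 150 CPM in collagen and 79.8 CPM in Matrigel cells (0.90). Lonp1 (60.1 and 73.4 CPM, -0.28) and Higd1a (317 and 384 CPM, -0.27) lay within 1.5-fold.

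**Figure D4:**
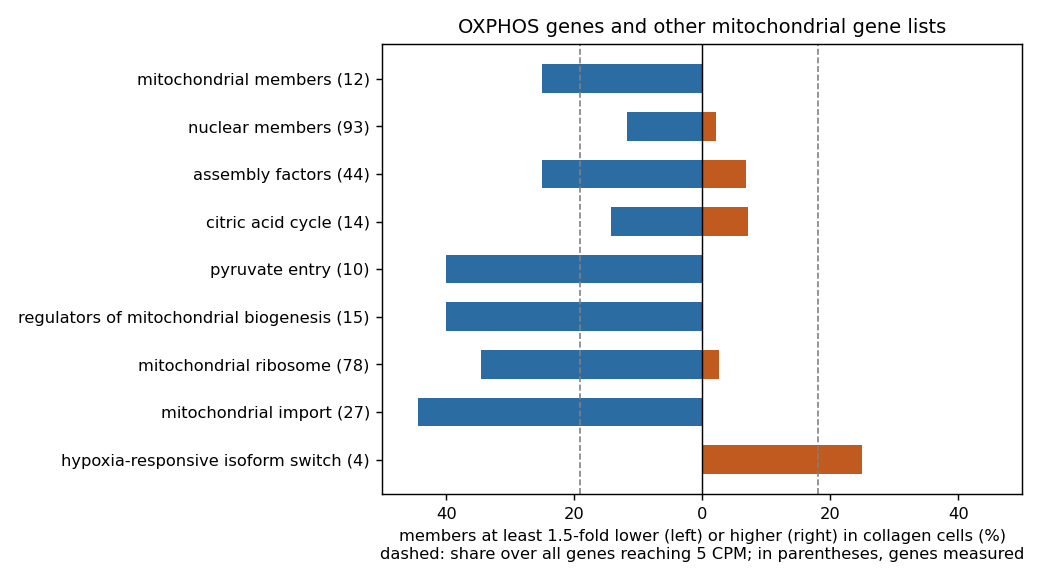
Percent of measured genes at least 1.5-fold lower (left, blue) or higher (right, orange) in collagen cells for the 12 mitochondrially encoded and 93 nuclear OXPHOS genes and 7 lists of related genes; dashed lines are the shares over all measured genes, 19.1% and 18.0%. The import, ribosome, pyruvate and regulator lists extend past the dashed line on the lower side. The 12 mitochondrially encoded genes (3 lower) and the assembly factors (11 of 44 lower) pass it by little. The nuclear OXPHOS genes stay short of it on both sides.

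The cells were then clustered on variable genes without the OXPHOS and other mitochondrially encoded genes, which gave 11 clusters. Most clusters held cells of nearly 1 culture only, and those with several cells of both held at most 9 collagen cells, so the cultures were not compared within clusters. Of the 336 collagen cells 286 lay in a cluster led by Ly6a, Msln and Muc3, with 33752 CPM of mitochondrial and 39008 CPM of nuclear genes. A cluster of 25 collagen cells and 1 Matrigel cell led by Ly6d and Sprr1a had 30175 and 38642 CPM, with a median depth of 45571 counts. In 5 of the Matrigel clusters, led by cell cycle genes, by Olfm4 and other crypt genes or by 2610528A11Rik and Atf5, mitochondrial genes ranged between 40586 and 43525 CPM and nuclear genes between 39540 and 45539 CPM. A goblet-like cluster of 37 cells, with Clca1, Tff3, Agr2 and Fcgbp but also the tuft marker Dclk1 among its leading genes, had 38991 CPM of mitochondrial and 40292 CPM of nuclear genes. The lowest mitochondrial level, 27607 CPM, was in 9 collagen and 46 Matrigel cells led by hormone and defensin genes such as Chgb, Cck and Defa31. These cells had 27461 CPM of nuclear genes. Their summed goblet markers, at 42156 CPM, were above the 14206 CPM of the goblet-like cluster.

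**Figure D5:**
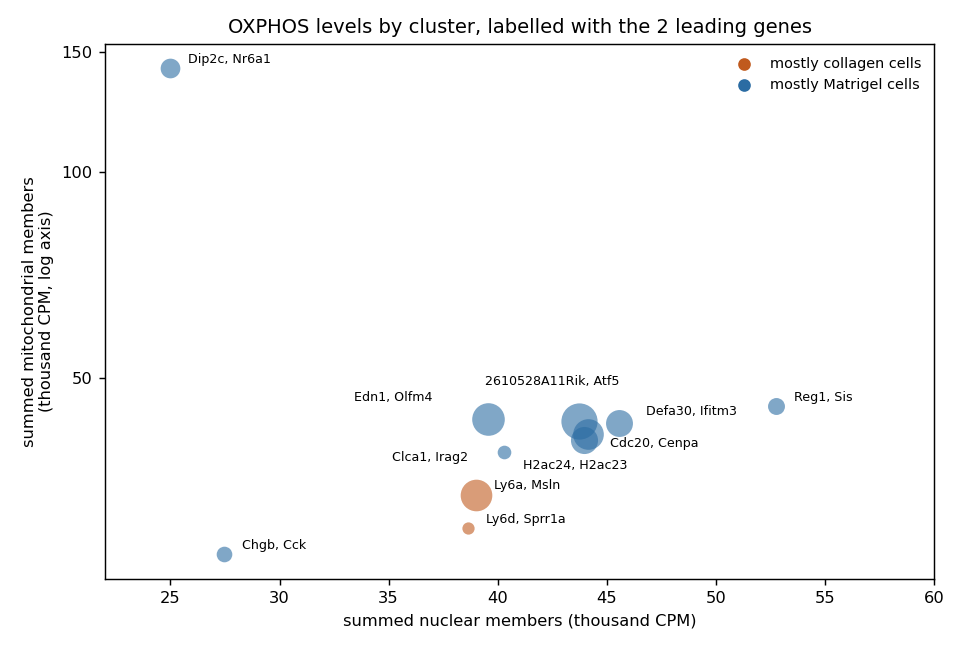
Summed level of the 12 mitochondrially encoded genes (log axis) against that of the 100 nuclear genes for 11 clusters, labelled with their 2 leading genes; the area of a point grows with the number of cells, and orange marks clusters mostly of collagen cells, blue mostly of Matrigel cells. The Reg1 and Sis cluster lies farthest right, at 52735 CPM of nuclear genes, and the Dip2c and Nr6a1 cluster lies at the top left, at 141768 CPM of mitochondrial and 24982 CPM of nuclear genes.

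The highest nuclear OXPHOS level was in 68 enterocyte-like Matrigel cells, named for the absorptive markers Sis, Rbp2 and Fabp1. Their nuclear genes summed to 52735 CPM, against 42569 CPM in the other 1531 Matrigel cells (log2 ratio 0.31), while the mitochondrially encoded genes summed to 45499 and 44092 CPM (0.05). Of 94 nuclear genes measured there, 6 were at least 1.5-fold higher and 3 lower, against 12.8% higher and 24.3% lower of 10414 genes. The median ratio of the 94 was 0.28 and that of all genes -0.16. These values describe cells of 1 culture and share their library. The enterocyte-like cells had a median depth of 204305 counts, against 179044 over all Matrigel cells, and the part of depth was not tested.

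The 6 higher genes came from complexes I to IV. Cox7a1 and Ndufa4l2 reached 5 CPM only in the enterocyte-like cells, so they could be counted only as higher. Cox7a1 stood at 32.8 CPM (29.8 to 36.0) in enterocyte-like cells and 4.15 CPM (3.91 to 4.39) in the other Matrigel cells (2.72), and Ndufa4l2 had 6.71 and 1.35 CPM (1.71). Sdhb had 518 CPM in enterocyte-like cells and 303 CPM in the others (0.77), Uqcrfs1 422 and 270 CPM (0.65), Ndufa6 1251 and 810 CPM (0.63), and Ndufb10 310 and 203 CPM (0.60). The lower genes were Cox6b2, an isoform known from testis, with 5.26 CPM in enterocyte-like cells and 12.3 CPM in the others (-1.09), and the assembly factors Ndufaf2 (47.3 and 71.6 CPM, -0.59) and Ndufaf7 (14.3 and 22.0 CPM, -0.59). When the Dip2c and Nr6a1 cluster was left out of the other cells, the lower genes numbered 2, and 1 of the assembly factors was no longer among them.

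A cluster of 6 collagen and 93 Matrigel cells led by Dip2c and Nr6a1 had the opposite balance of the genomes. It was picked as the cluster with the highest mitochondrial level, so that its mitochondrially encoded genes were higher follows from the choice. It is left without a cell type name, since its median depth was 43667 counts and no cell type marker was among its leading genes. In its Matrigel cells the mitochondrially encoded genes summed to 141310 CPM, against 42260 CPM in the other 1506 Matrigel cells, and all 12 were higher, with log2 ratios between 1.64 and 1.82. The nuclear genes summed to 25225 CPM there and to 43384 CPM in the others, with 61 of 93 at least 1.5-fold lower and 0 higher (4 of the 61, Cox6b2, Cox6c2, Cox7a1 and Ndufb4c, reached 5 CPM only in the other cells), against a background of 17.2% lower and 32.8% higher. mt-Co1, mt-Nd6 and mt-Nd4, which differed from each other between the cultures, were close here at 1.79, 1.75 and 1.64. Malat1 stood at 2210 CPM in the cluster. Without this cluster the mitochondrial sum had a log2 ratio of -0.33 between the cultures and the nuclear sum one of -0.16.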

How the data were processed

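Per the labels, cells were captured on a BD Rhapsody system and amplified by TAS-Seq. Build GRCm39 and the tools STARsolo 2.7.10a, R 4.2.1 and cutadapt 4.1 are named, per the submitters' processing notes, without their roles. No annotation is named. The authors deposited an expression table of unscaled expected counts for 37172 genes and 2090 cells, of which 75.6% of the values above 0 were whole (within 1e-06). Whether they stand for reads or for molecules is not stated. In the deposited hashtag table, the values are whole counts of each tag per barcode.

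Cell names set the culture, and 139 cells named as doublets were left out, with no other doublet caller run. The filter asked for 500 or more detected genes and no more than 30% of counts from mitochondrial genes, and 16 Matrigel cells failed it. Counts were summed per culture and scaled to 1000000 (CPM). Folds are log2 ratios of CPM after adding 1 to both levels, collagen on top, a scale that shrinks the ratios of low genes. They were taken for genes reaching 5 CPM in either culture, with thresholds of 1.5-fold and 2-fold. Poisson intervals at 95% (scipy 1.17.1) cover counting error only and would be too narrow if PCR copies of a molecule were counted. The sums and ratios were tested on simulated data. Copies were transcripts of GENCODE vM21 (build GRCm38, used for names and sequences only) matching at 95% identity or more over at least 100 bases (blastn 2.17.0). Clusters used scanpy 1.11.5 on 2000 variable genes, 30 principal components, 15 neighbours and resolution 0.8. Leading genes were the 10 with the largest ratio among genes of at least 50 CPM in a cluster.

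The genes, lists and rules were chosen with earlier results of these data known. Named were the mitochondrially encoded genes, the 2 highest and 2 lowest of each complex, genes past 1.5-fold, tissue isoforms, and up to 3 of each list of at least 10 CPM. The settings tried were other scalings, cell weights, filters, hashtag limits and ways to treat shared counts.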

Additional observations from a re-analysis of the deposited data

How the results depend on the processing

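The summed mitochondrially encoded genes stayed below 0 in all 14 alternatives run for them, with log2 ratios between -0.56 and -0.31, and the nuclear sum in all 14 of its own, between -0.17 and -0.13. Against -0.36 for the mitochondrial and -0.16 for the nuclear sum, scaling to the counts of nuclear genes gave -0.38 and -0.17, centring on the median of all measured genes -0.35 and -0.14, equal weight per cell -0.35 and -0.15, and thinning to 77972 counts per cell, which left out 72 collagen and 122 Matrigel cells, -0.44 and -0.14. Setting the culture by a hashtag share of at least 95% gave -0.36 and -0.15, and of at least 60%, which brings in cells named as doublets, -0.31 and -0.15. Leaving out genes with mostly fractional values gave -0.56, mostly from mt-Nd1, and -0.13. Leaving out the Dip2c and Nr6a1 cluster gave -0.33 and -0.16, and leaving out the Ly6d and Sprr1a cluster -0.36 for the mitochondrial sum. The mitochondrial sum was -0.38 with no cell filter, -0.38 at a mitochondrial share of at most 10% and -0.38 with mt-Cytb, and subunits alone gave -0.15 for the nuclear sum. The 14 genes at least 1.5-fold lower became 8 without the genes with mostly fractional values, where 72 were counted, and ranged between 12 and 17 otherwise. The 2 higher genes became 1 after thinning, with a pseudocount of 5 CPM and with a filter of 20 CPM. In the 12 alternatives that give a ratio to each of the 105 measured genes, 13 of the 16 genes past 1.5-fold stayed past it, and Cyc1, Ndufab1 and Cox7a1 did not in at least 1. The alternatives that add copies, or leave out the 2 clusters or cells under 80% of their own hashtag, were chosen after seeing the data. No paired analysis was possible because each culture was 1 suspension. Depth limits the low genes such as Ndufaf1 most.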
